A study of Arabidopsis thaliana with 4 samples.

Results

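AMY1 (gene ID 828603, locus AT4G25000) encodes an alpha-amylase of Arabidopsis thaliana. It was 1 gene of the 11508 genes listed in at least 1 of the 6 deposited tables, each of which compared 2 of the 4 sequenced libraries. The gene was found by its identifier and had been picked because of its large differences between libraries, so its own fold changes are given as a description with no test. Poly-A RNA had been sequenced from calli, masses of dividing cells in culture, of wild-type plants of ecotype Col-0. The callus lines came from root pieces cut from plants aged 30 days, and were kept on 0.5 mg/L of the synthetic auxin 2,4-D. The 4 groups were calli on Murashige and Skoog medium with both salt (100 mM NaCl) and auxin (2,4-D at 0.5 mg/L), with the salt alone, with the auxin alone, and without treatment. Salt was given for 4 weeks. A treatment time of 4 weeks and a subculture time of 3 weeks are recorded for all 4 groups. Each group had 1 sample, made from pooled RNA, so no difference has a replicate check. The libraries carry the codes 1A, 2A, 3A and 4A, which match no sample label, and every comparison is therefore given by code and not by treatment.

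Alpha-amylases cut starch chains at internal bonds and release short branched and linear glucans. Leaf starch lies in chloroplasts, where its breakdown at night depends mainly on phosphorylation of the granule surface, beta-amylases that release maltose, and debranching enzymes. Arabidopsis has 3 alpha-amylase genes. AMY3 encodes the plastid enzyme, whereas AMY1 carries a predicted secretion signal in the reference annotation and is known as an extracellular enzyme of senescing and stressed leaves, so its usual substrate is less clear than that of the plastid enzymes.

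In the TAIR10.1 reference, AMY1 lies on the minus strand at chr4:12851795-12853845. The gene model has 5 exons, an mRNA of 1606 bases and a coding length of 1272 bases, with a 5′ UTR of 20 bases and a 3′ UTR of 314 bases. The gene length in the deposited tables was also 1606 bases. Of the 1582 windows of 25 bases in the transcript, 0 occurred as exact matches elsewhere in the genome and 0 in the transcripts of AMY2 or AMY3. The 3′ end of the model shares 16 bases with the model of ATGP4 (AT4G24990), which lies on the same strand. SWEET14 (AT4G25010), a sugar efflux carrier gene, lies 539 bases upstream on the same strand.

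The 250 bases before the annotated start of AMY1 are shown because they are the stretch searched for short motifs known from amylase, defence and hormone-responsive promoters. They span chr4:12853846-12854095 and are written 5′ to 3′ along the minus strand of TAIR10.1, from RefSeq, with the single motif match in capitals:
AMY1 upstream: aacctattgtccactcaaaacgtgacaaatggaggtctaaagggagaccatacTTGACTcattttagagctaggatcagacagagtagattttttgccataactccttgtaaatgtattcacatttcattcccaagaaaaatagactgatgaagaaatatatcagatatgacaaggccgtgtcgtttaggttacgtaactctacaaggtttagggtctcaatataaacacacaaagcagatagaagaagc

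The match was TTGACT, a form of the W-box bound by WRKY factors, with its first base 197 bases before the start. TTGACT was present on either strand in 19.0% of the 27561 upstream stretches of this length that belong to protein-coding genes. The other form searched, TTGACC, had no match in AMY1 and was present in 12.2% of stretches. Motifs known from cereal amylase promoters were not in this window: the sugar-response element TATCCA is in 13.6% of stretches, the gibberellin-response element TAACAAA in 16.1% and the pyrimidine box CCTTTT in 25.2%. The G-box CACGTG (6.46% of stretches), the abscisic acid-response core ACGTGG (8.20%) and the auxin-response element TGTCTC (10.9%) also had no match. CACGTG and ACGTGG share letters and can overlap. All motifs were searched on both strands.

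AMY1 transcripts were listed as lower in every library set against 1A. The log2 fold change of 2A over 1A was -9.01 per the authors' deposited table, that of 3A over 1A was -5.92 and that of 4A over 1A was -11.59. AMY1 was also listed as lower in 4A than in 3A, at a log2 fold change of -5.67 per the authors' deposited table. It was not listed for 3A over 2A or for 4A over 2A. By these calls AMY1 was higher in 1A than in each other library and lower in 4A than in 3A.

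Put on one scale with 4A as 1, the fold changes of the authors' deposited table place AMY1 at 1 in 4A, 51 in 3A, 6 in 2A and 3088 in 1A. In order from low to high the libraries are 4A, 2A, 3A and 1A. The step between 3A and 1A, 60.5-fold, was listed per the authors' deposited table, while the neighbouring steps between 2A and 4A and between 3A and 2A were not. AMY1 in 1A therefore stands apart from the other 3 libraries by the authors' calls, and the order of 2A next to 4A and next to 3A is not given by any call. The fold changes of AMY1 taken through another library equalled the direct ones, since the 6 tables hold 3 independent contrasts.

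**Figure D1:**
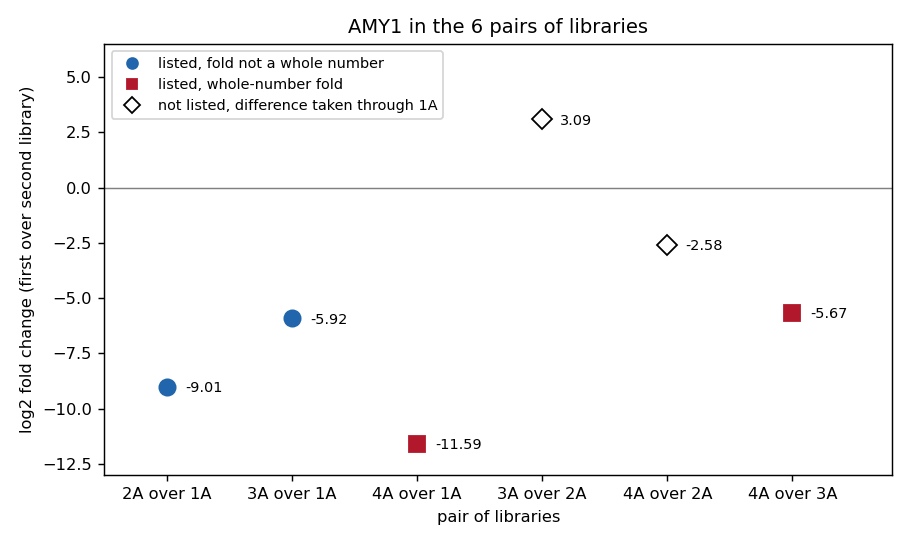
Log2 fold change of AMY1 (vertical axis) for each pair of libraries (horizontal axis), first library over second. Circles and squares are values from the authors' deposited tables, squares those with a whole-number fold, and open diamonds are differences taken through 1A for pairs in which AMY1 was not listed; the 3 values over 1A lie at -9.01, -5.92 and -11.59.

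The false discovery rates that the authors attached to AMY1 differed widely in size. They were 1.41e-286 for 2A over 1A, 2.02e-259 for 3A over 1A and 1.71e-293 for 4A over 1A, against 2.74e-05 for 4A over 3A, all per the authors' deposited table. These compare reads of pairs of libraries, not conditions. At a limit of 1e-10 the calls over 1A stood and the call of 4A over 3A was lost.

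The differences that were not listed can be taken through 1A. AMY1 was 8.50-fold higher in 3A than in 2A, a log2 difference of 3.09. It was 6-fold lower in 4A than in 2A, a log2 difference of -2.58. The second is a whole-number fold against 4A. The first rests on a 2A level only 6 times that of 4A, so neither is read as a size. Of the 325 other genes with a difference between 3A and 2A at least that large through 1A, 299 (92.0%) were listed in the direct table. Of the 466 other genes with a difference between 4A and 2A at least as large as that of AMY1, 329 (70.6%) were listed. The authors' call thus left out 26 other genes of that size beside AMY1 in the first pair and 137 in the second.

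Folds against 4A were whole numbers for AMY1 within a relative tolerance of 1e-09, both over 1A and over 3A, and so was the 6-fold difference from 2A. Whole-number folds were common among large differences: 71.0% of the 490 genes over 64-fold lower in 4A than in 1A had one, against 0.256% of the 1565 genes under 4-fold lower. Among the 256 genes 32-fold to 64-fold lower in 4A than in 3A the share was 37.9%. Whether the folds of AMY1 against 4A rest on a smallest value in 4A could not be read without the per-library values, so they are given as deposited and not read as sizes. The folds of 2A and 3A over 1A were not whole numbers, unlike 75.6% of the 193 genes over 64-fold lower in 2A than in 1A. AMY1 in 2A was only 6 times its level in 4A, however, so the fold of 2A over 1A is not read as a size either. Sequencing depth was not determined here.

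AMY1 took place 34 from the lowest of the 2821 genes listed lower in 2A than in 1A, place 8 of 3790 for 4A over 1A and place 617 of 4096 for 4A over 3A. In 3A over 1A it took place 67 of 1281. Of the 66 genes below it there, 64 had whole-number folds, which leaves 2 genes with a lower fold that was not a whole number. A total of 685 other genes were listed as lower in all 3 libraries set against 1A, and 38 of them were at least as low as AMY1 in 3A over 1A.

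Among 46 genes of starch breakdown and synthesis, AMY1 included, 17 (37.0%) were listed as lower in 2A than in 1A and 3 as higher, where 9.79% of the 27562 protein-coding genes of the reference were lower and 11.3% higher. In 4A over 1A, 13 (28.3%) were lower and 3 higher, where 13.1% of protein-coding genes were lower and 12.9% higher. In 3A over 1A, 3 were lower and 3 higher (6.52% each), near the 4.19% and 8.55% of protein-coding genes. In 3A over 2A, 22 (47.8%) were higher and 1 lower, where 11.3% of protein-coding genes were higher and 7.55% lower. In 4A over 3A, 18 (39.1%) were lower and 0 higher, where 14.3% of protein-coding genes were lower and 7.62% higher. In 4A over 2A, 3 were lower and 0 higher, where 8.28% of protein-coding genes were lower and 3.23% higher. Comparisons that share a library are not independent of each other.

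AMY1, which had been picked for such values, was the lowest of these genes in 2A, 3A and 4A over 1A, but not in 4A over 3A. Among the listed starch genes the median log2 fold change was -1.45 in 2A over 1A, -0.27 in 3A over 1A, -2.79 in 4A over 1A and -1.47 in 4A over 3A, where the medians of all listed genes were 1.09, 1.33, -1.01 and -1.43 per the authors' deposited table. The medians of the starch genes include AMY1, and that of 3A over 1A covers 3 higher and 3 lower genes. Apart from AMY1, the lowest starch gene was APL3 in 2A over 1A, at -4.27 per the authors' deposited table. It was GWD2 in 3A over 1A, at -2.86, and BAM5 in 4A over 1A, at -6.79, per the authors' deposited table. No test of a list against the other genes was made.

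The other alpha-amylase genes had smaller fold changes than AMY1 where they were listed. AMY2 was listed as higher in 3A and 4A than in 1A, with log2 fold changes of 1.97 and 1.52 per the authors' deposited table, and was not listed in the other 4 tables. AMY3, the plastid enzyme, was listed as lower in 2A than in 1A at -1.27 and as higher in 3A than in 2A at 1.40 per the authors' deposited table. AMY1 and AMY2 thus had opposite calls in 3A over 1A and in 4A over 1A, while AMY3 had the direction of AMY1 in 2A over 1A.

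Beta-amylases, which release maltose from chain ends, were listed for 5 of 9 genes. BAM5, the main beta-amylase outside the plastid, had log2 fold changes of -6.79 in 4A over 1A, -5.78 in 4A over 2A and -7.29 in 4A over 3A per the authors' deposited table, all with whole-number folds. It was not listed in 2A or 3A over 1A, the comparisons in which AMY1 had folds that were not whole numbers. BAM3, a plastid enzyme of night-time starch breakdown, was at -2.14 in 2A over 1A, -3.21 in 4A over 1A and -2.61 in 4A over 3A per the authors' deposited table. BAM1, a plastid enzyme known from stressed leaves and guard cells, was listed as higher in all 3 libraries over 1A, at 1.15, 1.34 and 1.50 for 2A, 3A and 4A per the authors' deposited table. BAM9, a plastid protein without catalytic activity, was at 1.97 in 2A over 1A per the authors' deposited table.

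Of the 16 genes for debranching, starch phosphorylation and the use of maltose and glucans, 7 were listed as lower in 2A than in 1A, 1 in 3A over 1A and 4 in 4A over 1A, where 9.79%, 4.19% and 13.1% of protein-coding genes were lower, and 0 were listed as higher. In 3A over 2A, 9 were higher and 0 lower, and in 4A over 3A, 8 were lower and 0 higher, where 11.3% of protein-coding genes were higher in the first pair and 14.3% lower in the second. GWD2 (AT4G24450), a glucan water dikinase outside the plastid, was listed as lower in all 3 libraries over 1A, with log2 fold changes of -2.75 for 2A, -2.86 for 3A and -3.61 for 4A per the authors' deposited table. LSF1, a phosphatase-like regulator of starch breakdown, was at -1.85 in 2A over 1A and -2.79 in 4A over 1A per the authors' deposited table. PHS1, the plastid glucan phosphorylase, was at -2.17 and -2.80 for the same pairs per the authors' deposited table. LDA, a debranching enzyme, was at -1.98 and -1.83 for them per the authors' deposited table. The genes DPE1 and DPE2 for glucan transferases, MEX1 for the maltose exporter and PHS2 for the cytosolic phosphorylase had listed log2 fold changes between -1.17 and 1.61 per the authors' deposited table.

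Of the 18 starch synthesis genes, 6 were lower and 1 higher in 2A over 1A, 1 lower and 1 higher in 3A over 1A, and 6 lower and 1 higher in 4A over 1A. The shares of protein-coding genes were 9.79% lower and 11.3% higher, 4.19% and 8.55%, and 13.1% and 12.9% in these pairs, so the counts of 3A over 1A (5.56% each) are near the background. In 3A over 2A, 9 were higher and 0 lower, and in 4A over 3A, 7 were lower and 0 higher, where 11.3% of protein-coding genes were higher in the first pair and 14.3% lower in the second. APL3 and APL4, large subunits of ADP-glucose pyrophosphorylase, were at -4.27 and -3.42 in 2A over 1A per the authors' deposited table. GBSS1, the granule-bound synthase that makes amylose, was at -2.81 in 2A over 1A and -3.29 in 4A over 1A per the authors' deposited table. APL1, another large subunit, was listed as higher in all 3 libraries over 1A, at 1.39, 1.83 and 1.48 for 2A, 3A and 4A per the authors' deposited table. APL4 was the only starch gene besides AMY1, of 46, listed as lower in the same 4 tables, at -1.88 in 3A over 1A and -1.35 in 4A over 3A per the authors' deposited table.

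**Figure D2:**
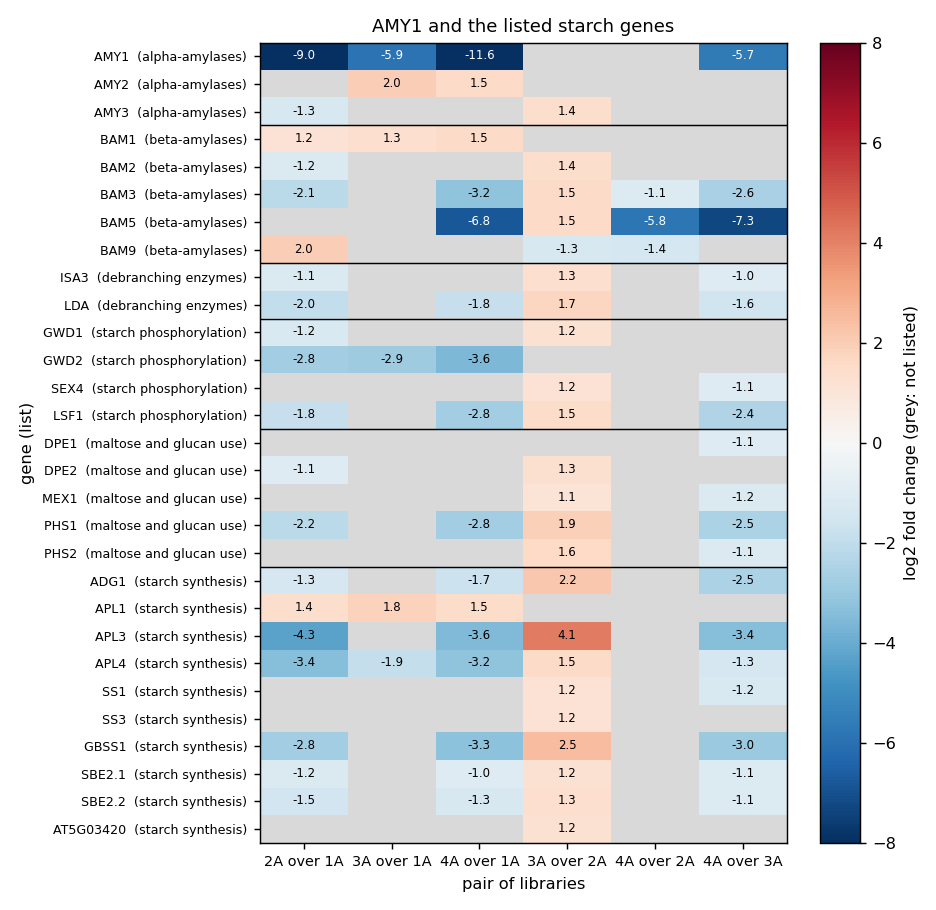
Log2 fold changes from the authors' deposited tables for the starch genes listed at least once (rows, grouped by role) in the 6 pairs of libraries (columns, first over second); grey cells were not listed and colours saturate at 8. The AMY1 row is the darkest in 2A, 3A and 4A over 1A, while the 3A over 2A column holds 22 higher genes and 1 lower gene.

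Genes of sugar handling showed calls opposite to AMY1 in some comparisons. Of 5 genes induced by sugar starvation, 5 were listed as higher in 4A than in 1A and 5 as higher in 4A than in 3A, both of them pairs in which AMY1 was listed as lower in 4A. Of protein-coding genes 12.9% were higher in the first pair and 7.62% in the second. ASN1, an asparagine synthetase, was at a log2 fold change of 5.07 in 4A over 1A and SEN1 at 5.66 in 4A over 3A per the authors' deposited table. In 2A over 1A, 3 of the 5 were higher and 0 lower, and in 3A over 1A, 1 was higher and 2 were lower, among them SEN1 at -2.77 per the authors' deposited table. In 3A over 2A, 4 were lower and 0 higher, and in 4A over 2A, 3 were higher and 0 lower. Of protein-coding genes, 11.3% were higher and 9.79% lower in 2A over 1A, and 8.55% and 4.19% in 3A over 1A. The shares were 11.3% higher and 7.55% lower in 3A over 2A, and 3.23% and 8.28% in 4A over 2A.

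SWEET14, the upstream neighbour of AMY1, was listed as higher in 3A than in 1A and in 2A and as lower in 4A than in 3A. Its log2 fold changes were 6.71, 6.71 and -6.71 per the authors' deposited table, each a whole-number fold. Other sucrose efflux carriers were also higher in 3A: SWEET11 was at 5.34, SWEET15 at 4.54 and SWEET12 at 2.97 in 3A over 1A per the authors' deposited table. SUC2, the sucrose carrier of phloem loading, was at -3.72 in 2A over 1A and -4.83 in 4A over 1A per the authors' deposited table. Of the 9 sugar carriers, 4 were higher and 1 lower in 3A over 1A, and 1 was higher and 4 lower in 4A over 1A. In 2A over 1A, 2 were higher and 1 lower. The shares of protein-coding genes were 8.55% higher and 4.19% lower in 3A over 1A, 12.9% and 13.1% in 4A over 1A, and 11.3% and 9.79% in 2A over 1A, so a count of 1 in 9 is near the background.

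Of the 9 genes for sucrose-cleaving enzymes, 2 were higher and 2 lower in 2A over 1A, 1 was higher and 2 were lower in 3A over 1A, and 2 were higher and 3 lower in 4A over 1A. Of protein-coding genes, 11.3% were higher and 9.79% lower in the first of these pairs, 8.55% and 4.19% in the next and 12.9% and 13.1% in the last. The cell wall invertase gene CWINV1, whose product is extracellular like that of AMY1, was at log2 fold changes of 1.40, -1.57 and 1.43 for 2A, 3A and 4A over 1A per the authors' deposited table. AT1G62660, annotated as a glycosyl hydrolase of family 32, was at 1.76, 3.44 and 2.59 for the same pairs per the authors' deposited table. VI2, of the same list, was listed as lower in all of these pairs, as AMY1 was. It was at -1.91, -1.07 and -1.93 per the authors' deposited table.

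**Figure D3:**
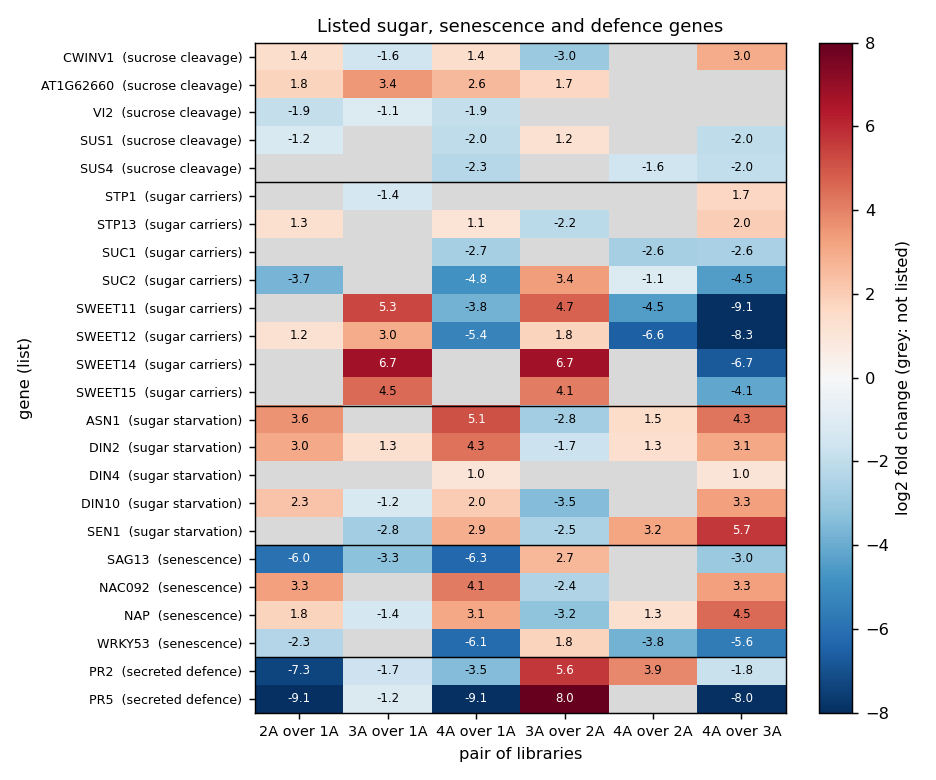
Log2 fold changes from the authors' deposited tables for the genes of sucrose cleavage, sugar transport, sugar starvation, senescence and secreted defence listed at least once (rows) in the 6 pairs of libraries (columns, first over second); grey cells were not listed and colours saturate at 8. Sugar starvation genes are red in 4A over 1A and 4A over 3A, where AMY1 was at -11.59 and -5.67.

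Apart from AMY1, 335 genes were listed as lower in the same 4 tables, with median log2 fold changes of -3.29 in 2A over 1A, -1.59 in 3A over 1A, -5.07 in 4A over 1A and -3.20 in 4A over 3A per the authors' deposited table. None of them (0 of 335) was as low as AMY1 in 3A over 1A. The pattern also asks for a lower level in 4A than in 3A, which leaves out genes already at a smallest value in 3A. The 0 is therefore not read as a trait of AMY1. Without that demand, 38 of the 685 other genes lower in all 3 libraries over 1A were at least as low. Like AMY1, 50 of the 335 genes were in neither of the other 2 tables. Of the 335 genes 208 were listed as higher in 3A than in 2A and 5 as lower, and 138 were listed as lower in 4A than in 2A and 3 as higher. Of protein-coding genes, 11.3% were higher and 7.55% lower in the first pair, and 8.28% lower and 3.23% higher in the second. Both pairs share libraries with the 4 that define the pattern. The 335 stand among 11508 genes listed in at least 1 table. Likeness to AMY1 was measured as the largest absolute difference of the log2 fold changes over the 4 tables, which rest on 4 libraries.

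By that measure the closest gene with a symbol was sks15 (AT4G37160), a member of the SKU5-similar family, at 2.25, followed by LTL1 (AT3G04290), a lipase gene, at 2.31. EARLI1 (AT4G12480), a lipid transfer protein gene, was next at 2.33, with -10.77 in 2A over 1A and -3.97 in 3A over 1A per the authors' deposited table. NAMT1 (AT5G04370), a nicotinic acid methyltransferase gene, was at 2.42, and the receptor-like protein genes RLP6 and RLP53 were at 2.85 and 3.20. TPS04 (AT1G61120), a geranyllinalool synthase, and CYP82G1 (AT3G25180), a P450 that acts later in the same route to the volatile homoterpene TMTT, were at 2.55 and 2.85. GPT2 (AT1G61800), which carries glucose 6-phosphate into plastids, was at 2.87, with log2 fold changes of -7.72 in 2A over 1A, -3.98 in 3A over 1A, -8.72 in 4A over 1A and -4.74 in 4A over 3A per the authors' deposited table. MBP2 (AT1G52030), related to myrosinase-binding proteins, was at 3.01.

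Another 2 genes, without a symbol, were closer: AT1G80130 at 1.64 and AT4G39320 at 1.92. In 3A over 1A these were at -5.15 and -5.60 per the authors' deposited table, so a fold near that of AMY1 was not particular to AMY1. AT4G39320 was, like AMY1, not listed for 3A over 2A or for 4A over 2A. Each of the 10 closest genes with a symbol differed from AMY1 by over 4-fold in at least 1 table. For all 10 of them the log2 fold change of 3A over 1A lay between -4.04 and -2.91 per the authors' deposited table, above the -5.92 of AMY1. TPS04, LTL1, sks15, RLP6, CYP82G1 and RLP53 had a whole-number fold in at least 1 of the 4 tables.

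**Figure D4:**
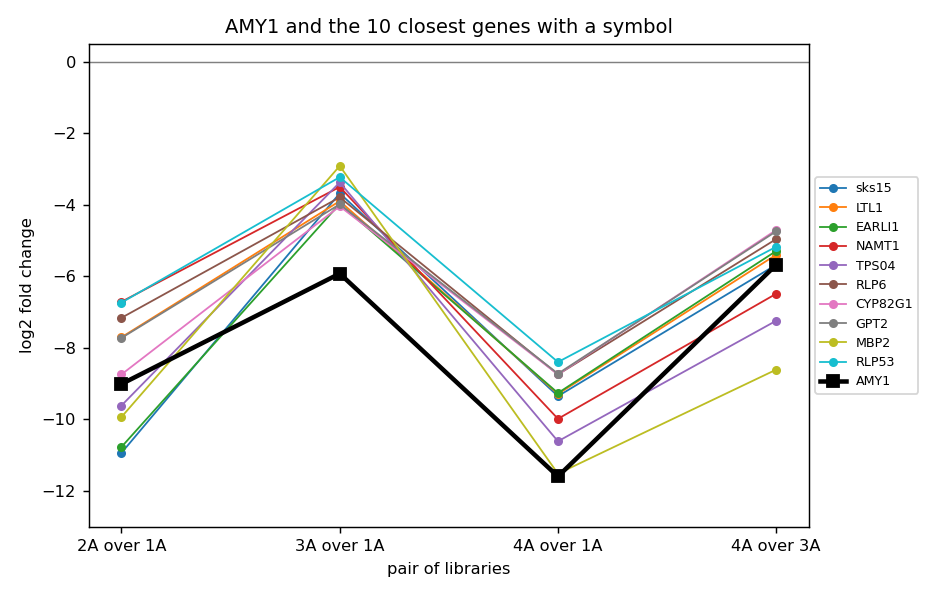
Log2 fold changes from the authors' deposited tables (vertical axis) of AMY1 (black squares) and the 10 closest genes with a symbol (coloured circles) in the 4 pairs of libraries that list AMY1 (horizontal axis, first over second). The circles lie between -4.04 and -2.91 in 3A over 1A, above AMY1 at -5.92. The 2 closer genes without a symbol are not drawn. Lines join values of 1 gene and mark no order of the pairs.

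Among the 5 protein-coding genes on either side of AMY1, only SWEET14 and ACP4 were listed in any table. ACP4 (AT4G25050), an acyl carrier protein of leaves, was at -1.20 in 2A over 1A and -2.20 in 4A over 1A per the authors' deposited table. ATGP4, whose model overlaps the end of AMY1, was in none of the 6 tables.

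AMY1 is known from senescing and stressed leaves. The senescence genes were listed in both directions in 2A over 1A, 4A over 1A and 4A over 3A, and only as lower in 3A over 1A. The secreted defence genes were listed only as lower in the 4 pairs in which AMY1 was listed. Of the 6 senescence genes, SAG13 followed AMY1 in all 4 tables, at -5.99 in 2A over 1A, -3.31 in 3A over 1A, -6.29 in 4A over 1A and -2.98 in 4A over 3A per the authors' deposited table. NAC092 and NAP, transcription factors that promote leaf senescence, were at 4.13 and 3.10 in 4A over 1A per the authors' deposited table. WRKY53 was at -2.35 in 2A over 1A, -6.13 in 4A over 1A and -5.57 in 4A over 3A per the authors' deposited table. The list held 2 higher and 2 lower genes in 2A over 1A, 0 and 2 in 3A over 1A, and 2 and 2 in 4A over 1A, where protein-coding genes had 11.3% and 9.79%, 8.55% and 4.19%, and 12.9% and 13.1%. Of 3 secreted defence genes, PR2 and PR5 were listed as lower in the same 4 tables as AMY1, and PR1 was not listed. Per the authors' deposited table, PR2 and PR5 were at -7.32 and -9.11 in 2A over 1A and at -1.68 and -1.15 in 3A over 1A. They were at -3.46 and -9.11 in 4A over 1A and at -1.77 and -7.95 in 4A over 3A. In these pairs the PR5 folds other than that of 3A over 1A were whole numbers. Of protein-coding genes 9.79% were lower in 2A over 1A, 4.19% in 3A over 1A, 13.1% in 4A over 1A and 14.3% in 4A over 3A.

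Transcripts of photosynthetic cells moved with AMY1 in part. Of 5 markers, 5 were lower and 0 higher in 2A over 1A, in 4A over 1A and in 4A over 3A, and 2 were lower and 0 higher in 3A over 1A. Of protein-coding genes 9.79%, 13.1%, 14.3% and 4.19% were lower in these pairs. LHCB2.2, a light-harvesting protein gene, was at -8.55 in 2A over 1A and -9.65 in 4A over 1A, but at -1.39 in 3A over 1A per the authors' deposited table. Copies of LHCB genes are nearly identical, so the value of each copy is uncertain. In 3A over 1A the listed markers ranged from -1.57 to -1.39, against -5.92 for AMY1, per the authors' deposited table. In 3A over 2A all 5 markers were higher, from 1.92 to 7.16 per the authors' deposited table, where 11.3% of protein-coding genes were higher. Their part in the AMY1 differences was not tested. In bulk RNA, fewer cells of a type and less RNA per cell cannot be told apart.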

How the data were processed

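Per the labels' protocols, callus RNA was pooled within each group, selected for poly-A tails and sequenced on a BGISEQ-500 machine; biological replicates are mentioned too. Per the submitters' processing notes, the build was TAIR10 and the tools included Bowtie, Bowtie2 2.2.5, HISAT, Cufflinks and StringTie 1.0.4, whose roles are not stated. The 6 deposited workbooks each compare 2 of 4 libraries. The log2 fold changes, the p-values and the FDR values beside them were computed by the authors, per the file headers; their test was not given in the sources used here. Every gene of a first sheet had an FDR under 0.001 and a log2 fold change of 1 or more in either direction. The gene length column was deposited with them, an other unit in bases. A further 36 columns of per-library values were not used, because their codes match no sample label. Depth and levels at a smallest value were not read for that reason.

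Of 11508 listed identifiers, 11380 matched the TAIR10.1 reference, and 67.6% of those had a deposited length equal to that of a reference transcript. AMY1, its lists (90 genes in 12 pathway lists, 19 genes in 5 marker lists) and the rules were chosen with earlier results of these data known. Genes named were AMY1, its paralogs, listed list members, the 10 closest genes with a symbol and 5 neighbours on either side; list members beyond the 2 largest were picked with their values in view. A planned protein alignment was not made. Percentages of protein-coding genes are over the 27562 in the reference. No test of samples was possible. Python 3.11.15, NumPy 2.4.6, pandas 2.3.3 and Matplotlib 3.10.9 were used, and the steps were tested on simulated data.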

Additional observations from a re-analysis of the deposited data

How the results depend on the processing

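The 4 listed AMY1 differences kept their direction and size at a 4-fold threshold and in the later sheets of the workbooks. Where 2 other tables list AMY1, they also did so through another library. None of these could have come out otherwise. The folds ran from 51 to 3088, the later sheets held the same values, and the 6 tables hold 3 independent contrasts. At an FDR limit of 1e-10 the call of 4A over 3A (-5.67) was lost, which follows from its FDR of 2.74e-05. The counts over the 69 starch and sugar genes depended on the fold threshold. At 4-fold, 3 genes were higher and 8 lower in 2A over 1A, against 10 and 20 as listed. For 3A over 1A the counts were 5 higher and 3 lower, against 9 and 8, and for 4A over 1A 5 were higher, against 11. In 3A over 2A, 7 were higher, against 29. In 4A over 2A, 1 was higher and 4 lower, against 3 and 8, and the FDR limit left 5 lower. In 4A over 3A, 5 were higher and 15 lower, against 8 and 26. The genes with the pattern of AMY1 numbered 70 at 4-fold, against 335. A higher threshold keeps fewer genes by construction. Leaving out whole-number folds kept every such count within 1.5 times. No paired analysis was possible because each group had 1 sample. No replicate could be left out.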

Other observations

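Gibberellin, the hormone that induces alpha-amylase in cereal grains, was covered by 12 genes. Of these, 3 were higher and 0 lower in 2A over 1A, 3 higher and 1 lower in 3A over 1A, and 1 higher and 4 lower in 4A over 1A. Of protein-coding genes, 11.3% were higher and 9.79% lower in the first of these pairs, 8.55% and 4.19% in the next and 12.9% and 13.1% in the last, so 1 higher gene of 12 is near the background. GA20OX1, a gibberellin synthesis gene, was at a log2 fold change of 4.85 in 2A over 1A, and GA3OX1, which makes the active hormone, was at 3.12 in 3A over 1A in the authors' deposited table. The repressor gene GAI was at 2.35 in 2A over 1A, and GASA4, a gibberellin-responsive gene, was at -1.81 in 4A over 1A in the authors' deposited table.

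Markers of root cell types were listed as higher in 2A, 3A and 4A than in 1A, where 11.3%, 8.55% and 12.9% of protein-coding genes were higher. All 5 root meristem genes were higher in 2A, 3A and 4A over 1A, with WOX5 at 5.91, 3.19 and 6.54 in the authors' deposited table. Of 3 root hair markers, 3 were higher in 2A over 1A, 1 in 3A over 1A and 3 in 4A over 1A. Endodermis markers were higher for 2, 3 and 1 of 3 genes in 2A, 3A and 4A over 1A, and xylem markers for 3, 1 and 2 of 3, with none of these genes lower. Between the libraries other than 1A the endodermis markers ran the other way in 4A: 3 of 3 were lower in 4A than in 3A and 2 of 3 lower in 4A than in 2A, where 14.3% and 8.28% of protein-coding genes were lower. Root hair markers were higher for 3 of 3 in both of these pairs, where 7.62% and 3.23% were higher. Root meristem markers were higher for 4 of 5 in 4A over 3A and lower for 1 of 5 in 4A over 2A, and xylem markers were higher for 2 of 3 and lower for 1 of 3 in the same pairs. In 3A over 2A, where 7.55% of protein-coding genes were lower and 11.3% higher, root meristem markers were lower for 5 of 5. Root hair markers were lower for 1 of 3 there and xylem markers for 2 of 3. Endodermis markers were higher for 2 of 3 in that pair. The part of these root markers in the AMY1 differences was not tested.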
